A study of Mus musculus with 2 samples.

Results

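The cells described here held transcripts of genes of blood stem and multipotent progenitor cells at the end of 3 days of myeloid culture. They were chosen by their own UMI counts: a cell was marker-positive when it had a UMI of at least 2 of Hlf, Mecom, Meis1, Ly6a, Myct1 and Flt3 and passed 3 exclusions. A UMI (unique molecular identifier) counts a captured RNA molecule, so that its PCR copies count only 1 time. The exclusions removed cells with 3 or more UMIs in the sum of Cpa3, Ms4a2 and Gata2 (mast cell and basophil genes), cells with 5 or more in the sum of Cd74 and the class II genes H2-Aa, H2-Ab1 and H2-Eb1 (genes of antigen-presenting cells), and cells with 1% or more of their UMIs from S100a8 and S100a9 (genes of maturing neutrophils and monocytes). This left 151 marker-positive cells of 8916, 78 of 2912 in the control library and 73 of 6004 in the knockdown library.

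Both libraries started from bone marrow of 5 C57BL/6 mice, enriched for stem and progenitor cells and infected with a retrovirus that also marks cells with GFP. The control virus carried a control shRNA that targets no mouse gene, and the knockdown virus an shRNA against Cxxc5, which encodes a CXXC zinc finger protein. GFP-positive LSK cells (lineage-negative, Sca-1-positive, Kit-positive, a marrow fraction rich in stem and progenitor cells) were sorted and grown for 3 days with 20% serum, 10 ng/ml GM-CSF and 10 ng/ml SCF. In each group 5 samples were pooled into 1 library, so no difference below has a replicate check and none was tested, and the age of the mice, and whether the same animals gave both pools, are not given in the sources used here. Every control cell was therefore also an infected, sorted and cultured cell.

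Blood stem cells can renew themselves and give rise to all blood lineages, and multipotent progenitors keep many lineage options with less self-renewal. As cells commit to the granulocyte and monocyte lines, stem cell transcription factors and surface antigens are turned down and the enzymes of primary granules, such as myeloperoxidase and neutrophil elastase, are turned up. GM-CSF is a growth factor for granulocytes, monocytes and their precursors, and SCF, the ligand of Kit, supports progenitors and mast cells.

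The 6 markers have different roles. Hlf (chromosome 11, 90336536 to 90390895, minus strand), Mecom (chromosome 3, 29951296 to 30548008, minus strand) and Meis1 (chromosome 11, 18879817 to 19018985, minus strand) encode transcription factors of stem cells. Ly6a (chromosome 15, 74994877 to 74998031, minus strand) encodes Sca-1, the antigen on which the cells had been sorted before culture. Myct1 (chromosome 10, 5593775 to 5606904, plus strand) encodes a membrane protein of stem cells and endothelium, and Flt3 (chromosome 5, 147330741 to 147400489, minus strand) the cytokine receptor of multipotent and lymphoid-primed progenitors. All coordinates are in GRCm38, the assembly that mm10 denotes, and all 6 are protein-coding genes.

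The markers were rare and sat at the detection limit. In the control library 69 marker-positive cells had a UMI of 2 markers and 9 of 3. In the knockdown library 68 had 2, 4 had 3 and 1 had 4, and no cell of either library had 5 or 6. Just outside the rule lay 406 control and 676 knockdown cells with 1 marker. The rule itself set these numbers, and they are a description only. Meis1 was the marker found most often, in 50 of 78 control and 47 of 73 knockdown members, followed by Ly6a in 42 and 29 and Hlf in 37 and 18. Myct1 was found in 20 and 30, Flt3 in 8 and 20, and Mecom in 8 and 8. The most frequent pair in the control library was Meis1 with Ly6a (23 cells, against 12 in the knockdown library), and in the knockdown library it was Meis1 with Myct1 (20 cells, against 13).

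Few members lay at the edge of an exclusion. Of 131 control and 111 knockdown cells with 2 or more markers, 34 and 29 were removed for mast cell and basophil genes, 15 and 6 for class II genes and 5 and 3 for S100a8 and S100a9 (1 control cell for more than 1 of these). Among members, 4 control and 5 knockdown cells held 2 UMIs of Cpa3, Ms4a2 and Gata2, and 6 and 4 cells with 2 or more markers were just outside at 3. Of class II UMIs, 0 control members and 1 knockdown member held 4, and 3 and 1 cells were just outside at 5. The highest share of S100a8 and S100a9 in a member was 0.973% and 0.994%, and the lowest excluded values were 1.07% and 2.13%. Gata2 is also a stem cell transcription factor, so this exclusion can remove stem-like cells along with mast cells and basophils.

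The label of stem and multipotent progenitor transcripts held for some markers and not for others. Hlf was found in 7.84% of the 1773 remaining control cells (interval 6.63 to 9.19%), the cells that passed the same exclusions with 0 or 1 marker. It was found in 8.27% (6.47 to 10.4%) of the 810 control cells excluded for S100a8 and S100a9, at median depths of 18867 and 15171 UMIs. In the knockdown library the shares were 4.78% of 4312 remaining and 4.58% of 1309 excluded cells, at medians of 11061.5 and 9436 UMIs. The shares of remaining cells leave out the 37 and 18 members with Hlf, which the rule took. With intervals that overlap those of cells with neutrophil genes, which should lack Hlf, a lone Hlf UMI is not read here as expression, and its source was not tested. Ly6a was found in 6.15% (5.07 to 7.37%) and 3.57% (3.04 to 4.17%) of remaining cells. In cells excluded for S100a8 and S100a9 it was found in 4.20% (2.92 to 5.82%) and 2.14% (1.43 to 3.08%). Unlike Hlf, Ly6a was thus somewhat more frequent in remaining cells of both libraries, though the intervals overlapped, in the knockdown library only barely. Since cells with neutrophil genes held it too, a lone Ly6a UMI is not read as expression either. Mecom, Meis1, Myct1 and Flt3 were found in at most 0.153% of cells excluded for S100a8 and S100a9 in either library. Meis1 and Myct1 were also found in cells excluded as mast cells and basophils (Meis1 in 29.3% of 174 control and 24.7% of 247 knockdown cells, Myct1 in 36.2% and 26.7%). Cells excluded for class II genes carried Ly6a (43.0% of 79 control and 40.3% of 67 knockdown cells) and Flt3 (11.4% and 7.46%). All intervals in this text are exact 95% intervals that cover counting error only.

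**Figure D1:**
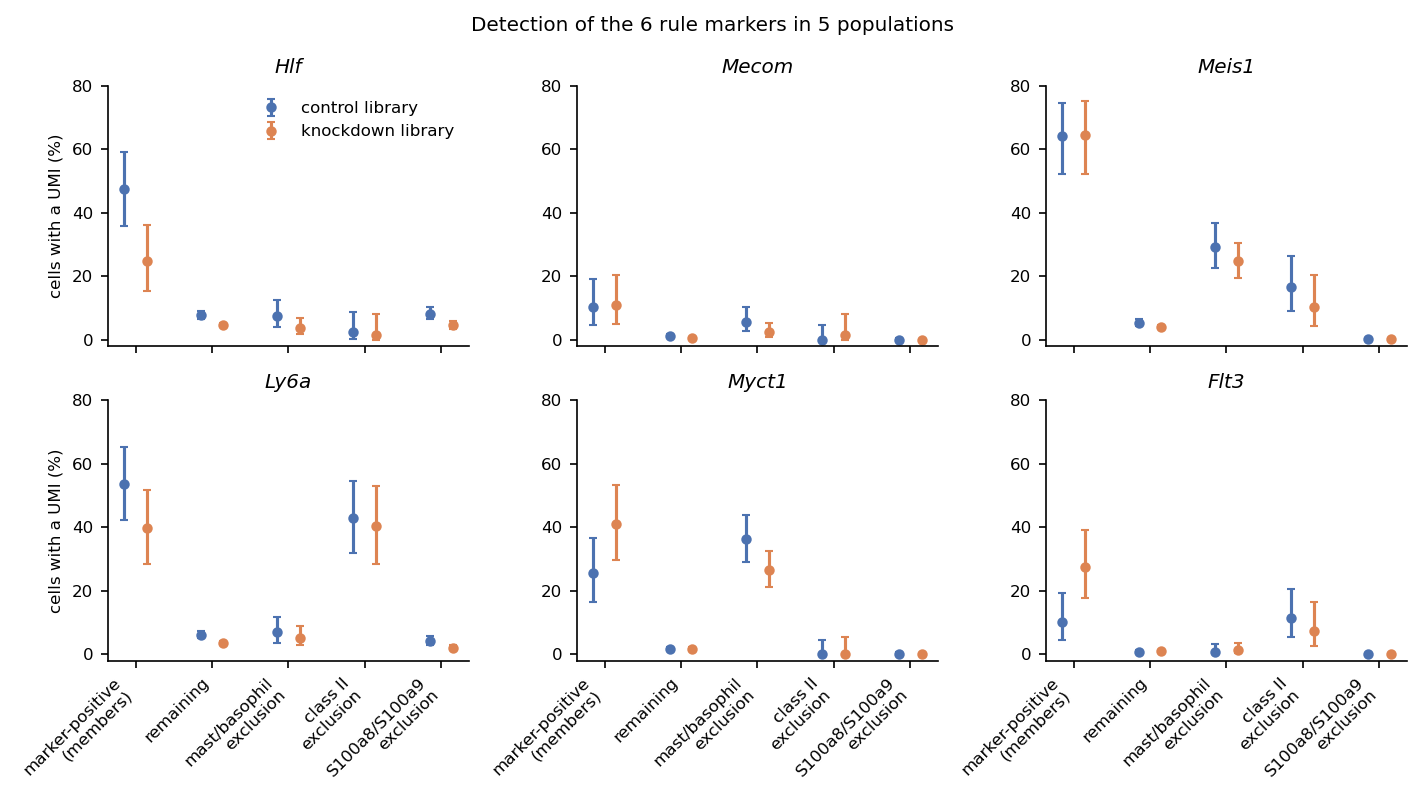
Share of cells with a UMI of each rule marker (y axis, percent) in 5 populations (x axis) of the control and knockdown libraries, with exact 95% intervals that cover counting error only. The values of the marker-positive cells follow from the rule; Hlf is found in 7.84% and 4.78% of remaining cells and in 8.27% and 4.58% of cells excluded for S100a8 and S100a9, while Meis1 and Myct1 recur in the mast and basophil exclusion.

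Several genes of long-term stem cells, named after their values were seen, had few or no UMIs. Procr, the protein C receptor used to purify stem cells, gave 4 UMIs over the 78 control members and 1 over the 73 knockdown members. Tek, a receptor of stem cells and endothelium, gave 1 and 0 UMIs. Fgd5, Emcn and Clec1a had no UMI in members of either library, where 3 UMIs are taken as the floor. Slamf1, which encodes CD150, a long-term stem cell antigen, was found in 9 of 78 control members (11.5%, 5.41 to 20.8%) and 4.96% of remaining cells. In the knockdown library it was found in 3 of 73 members (4.11%, 0.856 to 11.5%) and 3.48% of remaining cells. Angpt1, Itga2b and Vwf, also named after their values were seen, had higher shares in members than in remaining cells. Angpt1 was found in 7.69% of control and 21.9% of knockdown members, against 3.38% and 2.69%, and its control intervals overlapped (2.88 to 16.0% and 2.59 to 4.33%). Itga2b was found in 7.69% and 13.7%, against 1.69% and 1.69%. Vwf was found in only 4 control (5.13%, 1.41 to 12.6%) and 2 knockdown members (2.74%, 0.334 to 9.55%). In remaining cells its shares were 0.846% and 0.603% (0.394 to 0.882%). Cells excluded for S100a8 and S100a9 held Vwf in 1.85% (control) and 0.535% (knockdown), so its few UMIs in members are not read as expression. In the mast cell and basophil exclusion the shares were 33.3% and 25.9% for Angpt1 and 42.5% and 28.7% for Itga2b. Elane, the gene of neutrophil elastase, was found in 71 of 78 control and 53 of 73 knockdown members. It was also found in 70.1% of control and 69.6% of knockdown cells excluded as mast cells and basophils. Among cells excluded for class II genes the shares were 77.2% and 52.2%, so an Elane UMI alone does not tell these cells apart. With stem cell genes going both ways, the cells are called marker-positive cells here and not stem cells.

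How often a cell with 1 marker held another is a description of the rule's own genes and supports nothing further. Among cells passing the exclusions, another marker was found in 34.2% of control cells with Meis1 and 19.8% of those without, and in 21.6% and 12.7% in the knockdown library. Cells with Myct1 held another marker in 40.8% and 28.6%, against 24.1% and 15% of cells without it. For Flt3 the values were 38.1% and 32.8% with it and 25.3% and 15.9% without it. The gap was smaller for Ly6a (27.8% against 19.6% and 15.8% against 13.5%) and for Mecom (28.6% against 25% and 21.6% against 16.4%). For Hlf the shares were 21.0% with and 18.4% without it in the control library and 8.04% and 12.6% in the knockdown library, the only pair that was lower with the marker. Median depth was higher in cells with Meis1 (20417.5 against 18802 UMIs in the control and 11495.5 against 11050 in the knockdown). It was lower in cells with Myct1 (13397 against 19047.5 and 9555 against 11073), and the part of depth in these shares was not tested.

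The share of marker-positive cells was 2.68% (2.12 to 3.33%) in the control library and 1.22% (0.954 to 1.53%) in the knockdown library. Depth differed in the same direction, with a median of 17197 UMIs over kept control cells and of 10599 over kept knockdown cells. With every cell thinned to 5000 UMIs before the rule was applied, the control library had 12 marker-positive cells of 2797 (0.429%, 0.222 to 0.748%). The knockdown library had 25 of 5363 (0.466%, 0.302 to 0.687%), and 115 and 641 shallower cells were left out. Of the 12 and 25 cells, 8 and 23 were also members at full depth, and the others had been removed there by an exclusion. The exclusions were read from thinned UMIs as well, with unchanged limits of 3 and 5 UMIs, so more cells could pass them. Only the control library was also thinned, to a fraction of 0.586 of its UMIs, called knockdown depth below. This fraction came from the median depths of remaining cells (11061.5 UMIs in the knockdown and 18867 in the control). In this setting 45 of 2912 control cells were marker-positive (1.55%, 1.13 to 2.06%). Without Hlf and Ly6a in the rule, the shares were 0.618% (0.367 to 0.975%) and 0.566% (0.392 to 0.79%), 18 and 34 cells. The intervals of the libraries lay apart at full depth and overlapped in each of these 3 other settings. The control-thinned and 4-marker settings were added after the data were seen. At full depth the intervals also lay apart without exclusions (3.77 to 5.32% and 1.52 to 2.22%) and with a minimum of 1000 genes. They did so with at most 5% mitochondrial UMIs and without the highest doublet scores as well. Without Hlf alone the intervals overlapped (1.55%, 1.13 to 2.06%, and 0.949%, 0.72 to 1.23%). With at least 3 markers they overlapped too (0.309% and 0.0833%, 9 and 5 cells). Overlap of separate intervals does not show equal shares, and no difference was tested. The control share was the higher one in every setting except that of 5000 UMIs per cell. The size of the gap changed with depth and with the markers used.

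**Figure D2:**
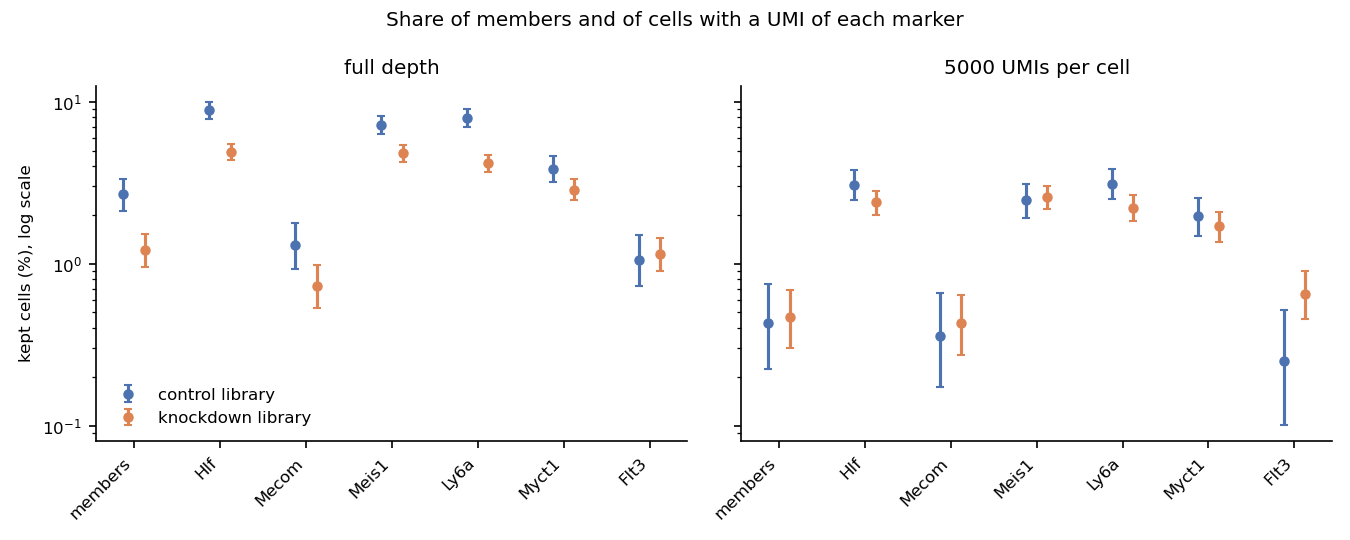
Share of kept cells (y axis, percent on a log scale) that are marker-positive or hold a UMI of each marker (x axis), at full depth (left) and with every cell thinned to 5000 UMIs (right), with exact 95% intervals that cover counting error only. The member share is 2.68% for the control and 1.22% for the knockdown at full depth, and 0.429% and 0.466% at 5000 UMIs per cell.

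At 5000 UMIs per cell the single markers differed between libraries in no common direction. The share with Flt3 was 0.25% in the control (0.101 to 0.515%) and 0.653% in the knockdown (0.455 to 0.906%). For Ly6a it was 3.11% (2.50 to 3.82%) and 2.22% (1.84 to 2.65%), and for Meis1 2.47% (1.92 to 3.11%) and 2.57% (2.17 to 3.03%). The intervals of the libraries overlapped for each of the 6 markers, which does not show that the shares were equal. For Flt3 (7 control and 35 knockdown cells) they overlapped only between 0.455 and 0.515%, and the difference was not tested.

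Levels are given as CPM, the UMIs of a gene summed over the cells of a population per 1000000 UMIs of that population. The 78 control members held 1600546 UMIs and the 73 knockdown members 712386. Marker-positive and remaining cells were compared within each library for 2542 genes, rule genes left out. In each library these had at least 50 CPM in members, in remaining cells or in both. A gene could thus pass through the population where it was high. Ratios past 1.5-fold the same way in both libraries were found for 9 genes that were higher in marker-positive cells (0.354% of genes tested) and 15 that were lower (0.59%). In the control library alone 10 genes were higher (0.393%) and 26 lower (1.02%), and in the knockdown library 51 higher (2.01%) and 256 lower (10.1%). All 10 genes higher in the control library were also higher in the knockdown library. With ratios scaled so that their median was 0, the counts were 13 higher and 13 lower, since the median log2 ratio was -0.04 for the control and -0.16 for the knockdown. The share of higher genes then moved from 37.5% to 50%. The rule chose these cells, so the comparison describes them and tests nothing.

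Cd34, Adgrg1 and Ctla2a led the 9 higher genes. Like Sox4, Bcl2 and Igfbp7 below, they reached 50 CPM in members only, so they were admitted by the values that made them high. Cd34, the sialomucin of multipotent and committed progenitors, stood at 100 CPM in control members (160 UMIs in 50 cells) and 192 CPM in knockdown members (137 UMIs in 52 cells), against 46.1 and 40.1 CPM in remaining cells. Its log2 ratio was 1.12 (0.87 to 1.35) and 2.26 (2.0 to 2.51). At 5000 UMIs per cell, a Cd34 UMI was found in 41.9% of control and 59.4% of knockdown members and in 17.3% and 15.2% of remaining cells. Adgrg1, an adhesion receptor also known as GPR56 and used as a stem cell antigen, stood at 50.6 and 80 CPM against 16.4 and 20.0 CPM. Its log2 ratio was 1.63 (1.27 to 1.97) and 2.0 (1.59 to 2.39). Ctla2a, which encodes a cysteine protease inhibitor and shares sequence with its neighbour Ctla2b so that reads may be split, had the highest ratio ranked by the nearer library. It stood at 50.6 and 61.8 CPM against 15.1 and 12.2 CPM, or log2 1.75 (1.39 to 2.09) and 2.34 (1.86 to 2.78).

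Sox4, Bcl2 and Igfbp7 followed. Sox4, a transcription factor of progenitors and B cell precursors, stood at 61.9 and 99.7 CPM against 28.6 and 33.7 CPM, with log2 ratios of 1.11 (0.80 to 1.41) and 1.56 (1.20 to 1.91). Bcl2, which encodes an inhibitor of apoptosis, stood at 65.6 and 114 CPM against 31.0 and 35.3 CPM, or log2 1.08 and 1.69. Igfbp7, which encodes a secreted binding protein of insulin-like growth factors, stood at 90.6 and 94.1 CPM against 45.3 and 30.5 CPM, or 1.0 and 1.63. The other 3 genes were Vamp5 (0.73 and 0.86), a SNARE protein, Cux1 (0.70 and 0.82), a homeodomain transcription factor, and Tmem176b (0.67 and 1.44), a membrane protein of myeloid cells. Serpina3g, Fam212a and Pgrmc1 followed with ratios of the nearer library under 1.5-fold (1.48, 1.44 and 1.42).

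These genes were not particular to the marker-positive cells. Cells excluded as mast cells and basophils had more of Ctla2a (291 and 182 CPM), Adgrg1 (177 and 162 CPM) and Igfbp7 (223 and 124 CPM) than the members had. Cd34 stood at 176 and 145 CPM there, above the control members and below the knockdown members. In cells excluded for S100a8 and S100a9, Cd34 stood at 1.37 and 1.59 CPM and Ctla2a at 1.78 and 0.876 CPM. Members held 6 and 7 UMIs of Cpa3 in all and 14 and 15 of Gata2. Of the 12 further mast cell and basophil genes, 7 had no UMI in control members and 8 none in knockdown members, and their summed level was 197 and 275 CPM in members, 159 and 186 CPM in remaining cells and 2273 and 2393 CPM in the excluded cells. Mcpt8, a basophil protease gene, made up 104 and 166 CPM of the members' sum, with 43.4% and 43.2% of its UMIs in 3 cells. Whether shared progenitors of mast cells and basophils contributed to the higher genes was not tested.

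**Figure D3:**
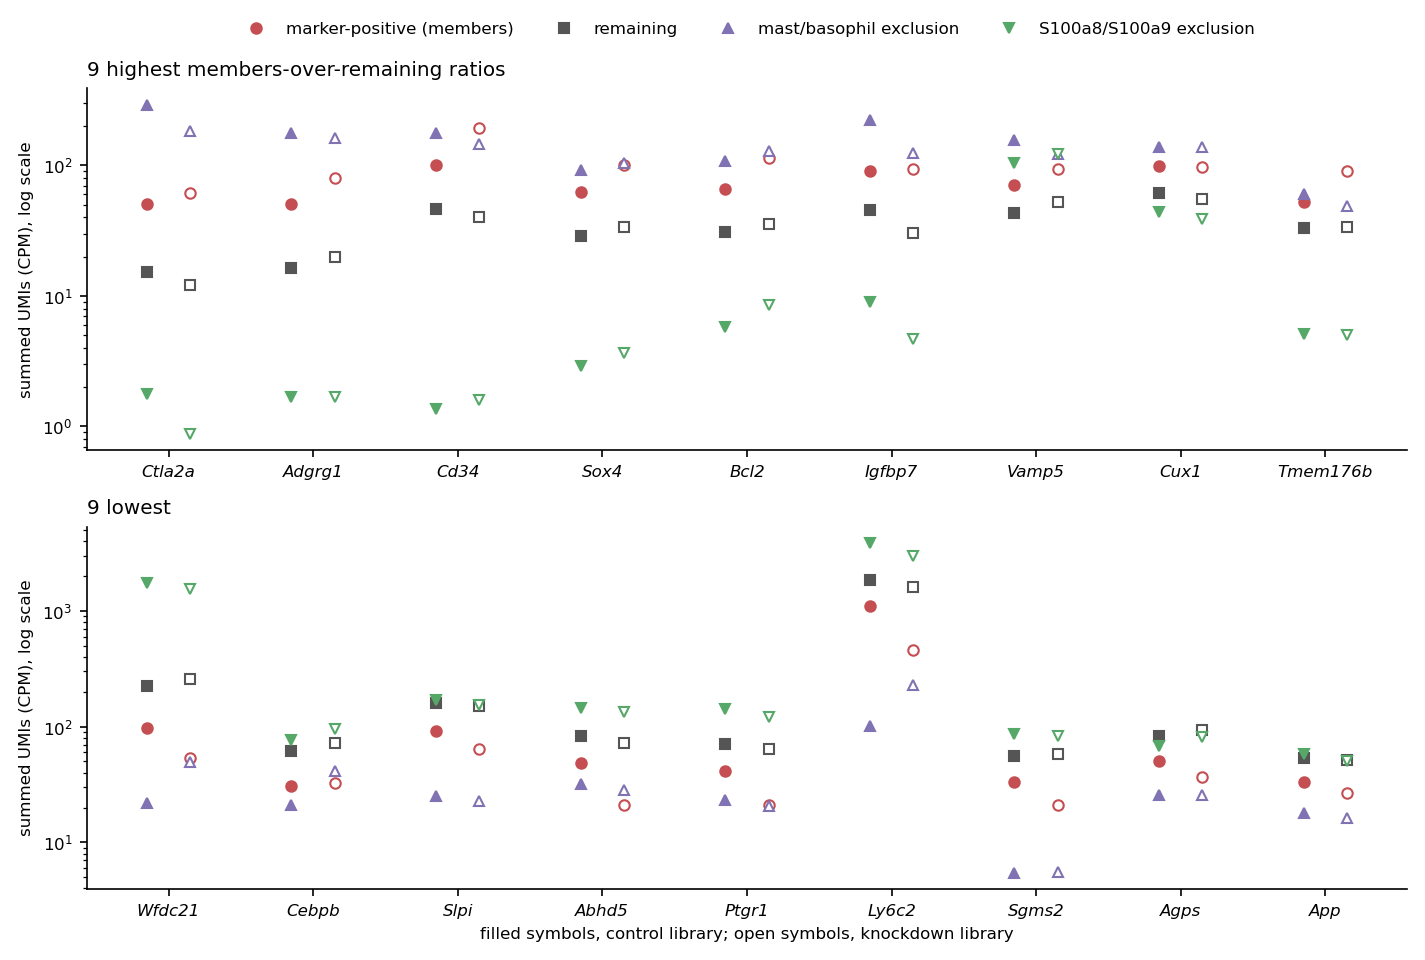
Summed UMIs in CPM (y axis, log scale) of the 9 genes with the highest and the 9 with the lowest members-over-remaining ratio, in 4 populations of the control (filled) and knockdown (open) libraries. Marker-positive cells lie above remaining cells in the upper panel, as for Cd34 at 100 against 46.1 CPM in the control library, and the mast and basophil exclusion lies higher still for Ctla2a, Adgrg1 and Igfbp7; in the lower panel the members lie below remaining cells.

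The sequences just upstream of 3 of these genes are shown because the genes were higher together in both libraries. They were taken from RefSeq's GRCm38.p6 promoter table, 250 bases before the start site or up to the last base before an annotated exon, each 5′ to 3′ on the strand of its gene, with motif matches in capitals.
Ctla2a, chr13:60936626-60936875, minus strand: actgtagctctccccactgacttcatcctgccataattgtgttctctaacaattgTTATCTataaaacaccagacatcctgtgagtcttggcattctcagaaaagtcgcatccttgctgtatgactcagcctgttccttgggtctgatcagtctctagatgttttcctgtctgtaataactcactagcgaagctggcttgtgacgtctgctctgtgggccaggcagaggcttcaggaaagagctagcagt
Cd34, chr1:194938571-194938818, plus strand: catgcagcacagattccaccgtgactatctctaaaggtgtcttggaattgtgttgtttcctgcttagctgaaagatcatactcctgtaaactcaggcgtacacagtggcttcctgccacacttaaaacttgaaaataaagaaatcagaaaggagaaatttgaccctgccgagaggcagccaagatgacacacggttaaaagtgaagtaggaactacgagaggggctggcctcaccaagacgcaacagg
Sox4, chr13:28953714-28953949, minus strand: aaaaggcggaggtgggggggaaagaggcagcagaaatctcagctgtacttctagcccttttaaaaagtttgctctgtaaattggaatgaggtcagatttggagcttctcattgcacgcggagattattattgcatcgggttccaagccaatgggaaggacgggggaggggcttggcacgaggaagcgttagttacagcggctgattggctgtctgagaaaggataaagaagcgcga
Motifs were searched on both strands, and their background is the share of 32851 windows of 250 bases that hold them. The MEIS motif TGACAG is held by 15.9% of windows, the HLF motif TTACGTAA or TTATGTAA by 0.931%, the GATA motif AGATAA by 9.99%, and the RUNX motif TGTGGT by 14.0%. The Ctla2a window held 1 GATA match, in capitals, and those of Cd34 and Sox4 none of the 4. Windows of 250 bases before Bcl2 and Igfbp7 also held none, and that before Vamp5 held 1 MEIS match. A match is a description of letters and no evidence of binding.

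Several of the 15 lower genes are known from maturing granulocytes and monocytes. Wfdc21 and Slpi encode secreted proteins of the whey acidic protein family, and Cebpb a transcription factor of stress granulopoiesis. Wfdc21 stood at 98.1 and 53.3 CPM against 224 and 259 CPM in remaining cells, or log2 -1.19 (-1.43 to -0.96) and -2.28 (-2.78 to -1.82). Cebpb stood at 30.6 and 32.3 CPM against 62.1 and 71.7 CPM, or -1.02 and -1.15. Ly6c2, an antigen of monocytes and of granulocyte and monocyte progenitors, stood at 1093 and 459 CPM against 1854 and 1593 CPM, or -0.76 and -1.79. The neutrophil granule genes Lcn2 (-0.68 and -1.58) and Hp (-0.70 and -1.29) and the Fc receptor gene Fcgr3 (-0.68 and -1.24) were lower too. In the cells excluded for S100a8 and S100a9, Lcn2 stood at 1394 and 1430.5 CPM and Wfdc21 at 1725 and 1554 CPM, while Slpi stood at 169 and 154 CPM, close to the 161 and 150.4 CPM of remaining cells.

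Lists of lineage genes were read beside the median over all genes tested (log2 -0.04 and -0.16). Of 14 granulocyte and monocyte progenitor genes, 13 were tested, and 2, Elane and the serine protease gene Prss57, were lower past 1.5-fold in both libraries and 0 higher. Their median log2 ratio was -0.33 and -0.92, and their summed level 14569 and 9915 CPM against 18860.1 and 19819 CPM. Elane stood at 3908 CPM in control members and 2085 CPM in knockdown members, against 6034 and 5853 CPM. Mpo stood at 1476 and 1082 CPM against 1652 and 1871 CPM. Elane was thus past 1.5-fold lower in both libraries and Mpo in the knockdown library only, and both stood above 1000 CPM in members. Neutrophil genes summed to 287 and 264 CPM against 503 and 403 CPM, with 4 and 3 of 14 at 0, and monocyte and macrophage genes to 1703 and 1223 CPM against 2599.8 and 2057 CPM. Of 5 monocyte and macrophage genes tested, only Ly6c2 was past 1.5-fold lower in both libraries, and the median log2 ratio was -0.46 in the control but 0.45 in the knockdown. Ccr2 and Irf8 were higher there, at 1.88 and 1.52.

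Stem cell lists lay slightly above remaining cells. Of 19 surface antigens of stem and progenitor cells, 5 were tested, and 2, Cd34 and Adgrg1, were higher past 1.5-fold in both libraries and 0 lower. The summed level was 454 and 647 CPM against 330.3 and 344 CPM, and 4 and 6 genes had no UMI in members. Kit, the SCF receptor and a sort antigen, stood at 34.4 and 29.5 CPM against 27.8 and 28.0 CPM, within counting error. Of 23 stem cell transcription factors, 6 were tested and 1, Sox4, was higher past 1.5-fold in both libraries. Their sum was 887 and 1085 CPM against 724 and 795 CPM. Lmo2, a partner of Tal1 and Gata2, stood at 365 and 427 CPM against 294 and 339 CPM. Ikzf2, encoding the factor Helios, was below the minimum of 50 CPM, with 38 UMIs (23.7 CPM) and 35 UMIs (49.1 CPM) in members against 10.1 and 9.15 CPM in remaining cells, and 201 and 208 CPM in the mast cell and basophil exclusion.

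Of 18 lymphoid-primed genes 4 were tested, with 0 past 1.5-fold in both libraries, and their sum was 418 CPM against 352 CPM in the control library and 560.1 against 305 CPM in the knockdown library. Cd52, a surface glycoprotein of leukocytes, accounted for 100 and 167 CPM in members against 78.9 and 50.1 CPM. Dntt, the nucleotide transferase of early lymphoid cells, gave 1 UMI in control and 0 in knockdown members. Genes of eosinophils (8) and of T and NK cells (7) had 0 UMIs in members of both libraries. Cell cycle lists were close to remaining cells, with summed folds of 0.928 and 0.840 for 40 S phase genes and 0.979 and 0.906 for 48 genes of G2 and M phase, and no gene of either list passed 1.5-fold in both libraries.

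Marker-positive cells were not uniform, and the marker a cell carried went with other genes. The groups by marker, and the genes shown for them, were chosen after their values were seen, and a cell with 2 markers counts in both groups. The groups rest on the rule's own markers, so their contrasts are a description only. Their depth differed, with control medians of 13264.5 UMIs with Myct1, 12169 with Flt3 and 23870 with Hlf. The part of depth in these contrasts was not tested. Members with Myct1 (20 control and 30 knockdown cells) had Cd34 at 248 and 296 CPM, Adgrg1 at 151 and 119.8 CPM and Igfbp7 at 251 and 176 CPM. Elane stood there at 1027 and 1575 CPM, against 4515 and 2422 CPM in members without Myct1, and Ly6c2 at 129 and 197 CPM against 1296 and 632 CPM. Itga2b, the integrin chain of megakaryocytes and some stem cells, stood there at 50.3 and 38.8 CPM, against 0.00 and 2.33 CPM in members without Myct1. Members with Flt3 (8 and 20 cells) had instead Irf8, a transcription factor of monocyte and dendritic cell precursors, at 334 and 379 CPM. Ccr2, a chemokine receptor of monocytes, stood there at 277 and 224 CPM and Cd52 at 267 and 316 CPM. Members with Hlf (37 and 18 cells) had Elane at 4622 and 3260.2 CPM, Irf8 at 47.7 and 26.8 CPM and Cd34 at 89.6 and 152 CPM.

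**Figure D4:**
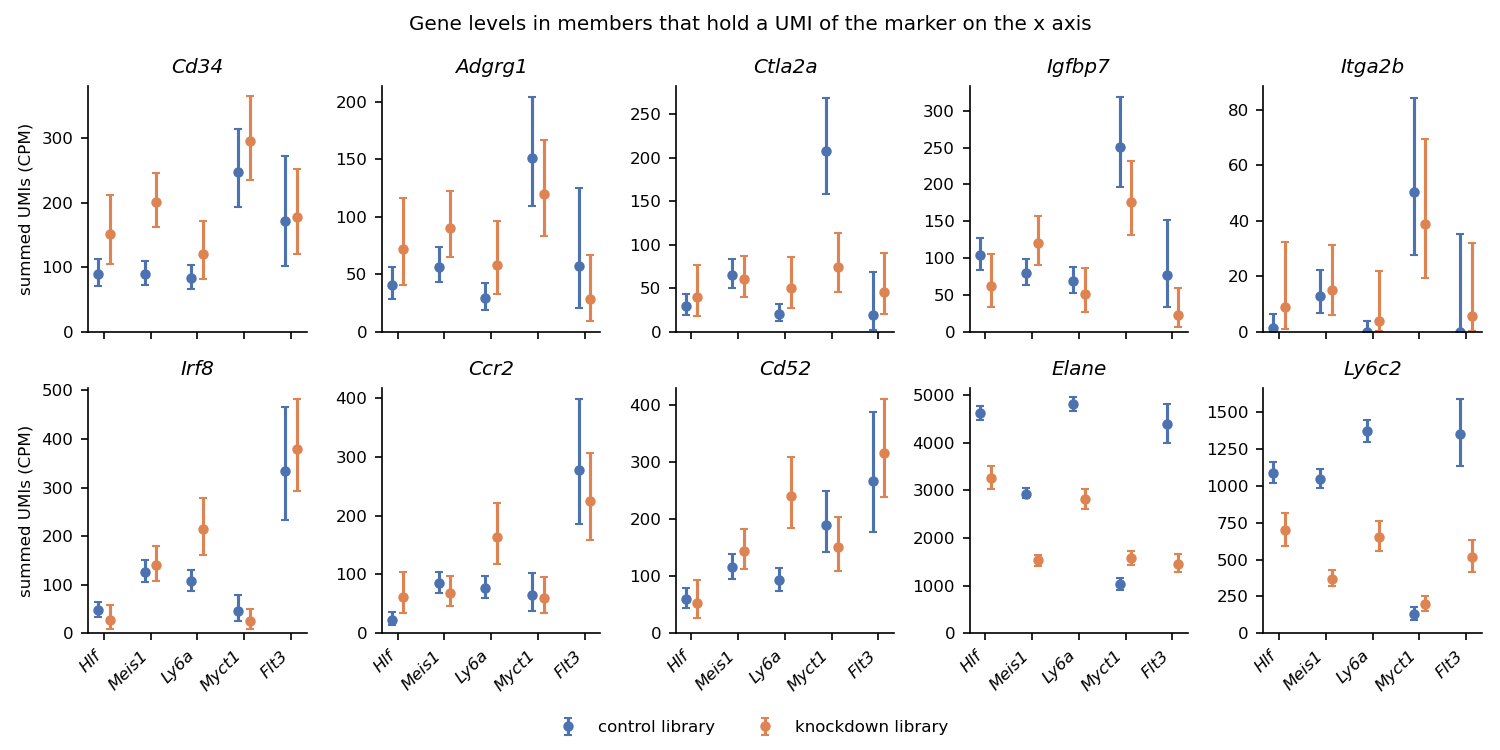
Summed UMIs in CPM (y axis) of 10 genes in marker-positive cells that hold a UMI of the marker named on the x axis, in the control and knockdown libraries, with exact 95% intervals that cover counting error only. Members with Myct1 are high in Cd34 (248 and 296 CPM) and at 1027 and 1575 CPM for Elane, members with Flt3 are high in Irf8 (334 and 379 CPM), and groups share cells that hold both markers.

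The number of markers went with Cd34 in the control library. The rule counted these markers, so the comparison is a description only. Cd34 stood at 38.7 CPM in control cells with 0 markers, 68.4 with 1, 85.4 with 2 and 243 with 3 or more, the last from 9 cells. The knockdown values were 32.2, 80.3, 197 and 139 CPM, the last from 5 cells. Elane went the opposite way, at 6309, 5201, 4024 and 2773 CPM in the control and 6081, 4682, 2123 and 1647 CPM in the knockdown library.

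Part of the marker-positive cells lay together in expression space. The 15 nearest neighbours of each cell passing the exclusions were found from 20 principal components of 2000 variable genes with the rule genes left out, a check chosen after seeing the data. At least 1 neighbour was a member for 54 of 78 control members (69.2%) and 39.6% of remaining control cells, and for 41 of 73 knockdown members (56.2%) and 13.8% of remaining cells. At least 3 neighbours were members for 16 control and 13 knockdown members (20.5% and 17.8%), against 5.47% and 1.95% of remaining cells. Those 16 and 13 cells had Cd34 at 272 and 314 CPM, Adgrg1 at 234 and 119 CPM and Ctla2a at 261 and 108 CPM. Elane stood there at 730 and 293 CPM, against 4319.8 and 2351 CPM in the other members. Their median depth was lower, at 11471 and 6521 UMIs against 23023.5 and 10302 UMIs, and its part in the grouping was not tested. Most members, 62 of 78 and 60 of 73, had fewer than 3 members among their neighbours.

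The last question was how marker-positive cells differed between the Cxxc5 knockdown and the control. Cxxc5 itself gave 35 UMIs in 25 of 78 control members (21.9 CPM) and 4 UMIs in 4 of 73 knockdown members (5.61 CPM). The log2 ratio was -1.96 (-3.92 to -0.48), and in remaining cells the level was 9.01 and 1.17 CPM, a ratio of -2.94. Cxxc5 was thus lower in the knockdown library in both populations, and in both libraries it was higher in marker-positive than in remaining cells (log2 1.28 and 2.26). Control members with Myct1 had it at 64.6 CPM.

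Among 2667 genes of at least 50 CPM in members of either library, 78 (2.92%) were past 1.5-fold higher in knockdown members and 161 (6.04%) past 1.5-fold lower. Among remaining cells the same genes gave 1 higher (0.0375%) and 13 lower (0.487%), from far more UMIs. With the median ratio of -0.09 set to 0, the counts in members became 120 higher and 110 lower, so the share of higher genes moved from 32.6% to 52.2%. With the control thinned to the knockdown depth to choose members, and ratios still taken from all UMIs, 209 genes were past 1.5-fold, 134 of them among the 239. The median gene tested had 161 UMIs in control and 67 in knockdown members, and the spread between cells was not tested.

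Ifi203, Mndal, Cd27 and Muc13 were among the 12 highest ratios in knockdown members. The minimum of 50 CPM had to be met in 1 library only, so a gene could enter this ranking through the library where it was high. Ifi203, Cd27, Muc13 and Id2 (below) entered through the knockdown library, and Thbs1 (below) through the control library. Ifi203 and Mndal belong to 1 family of interferon-inducible DNA sensors with similar sequences, between which reads may be split. Ifi203 stood at 71.6 CPM in knockdown members (51 UMIs in 26 cells) and 19.4 CPM in control members (31 UMIs in 17 cells), or log2 1.89 (1.21 to 2.58), and -0.29 in remaining cells. Mndal had 1.21 in members and -0.45 in remaining cells. Cd27, a receptor of lymphoid-primed progenitors and lymphocytes, stood at 61.8 and 25.6 CPM, or 1.27 (0.62 to 1.92), and Muc13, a mucin of progenitors, at 68.8 and 29.4 CPM, or 1.23 (0.62 to 1.84). Cd34 had a log2 ratio of 0.94 (0.60 to 1.28) in members and -0.20 in remaining cells. Pold4 (1.56), a DNA polymerase subunit gene, Scin (1.24), an actin-severing protein gene, Suv39h1 (1.17), a histone methyltransferase gene, Bex6 (1.28) and Bmyc (1.14) completed the genes spread over at least 25 knockdown members each. Without Hlf and Ly6a in the rule, Cd27 was at -0.34, Ifi203 at 0.51 and Mndal at 0.25, from 18 control and 34 knockdown cells. With cells thinned before the rule, Cd27 (-0.06), Muc13 (-1.71), Pold4 (-0.57) and Bex6 (-0.64) also turned, from 12 and 25 cells.

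Of the other 3 higher genes, most UMIs came from few cells. Id2, an inhibitor of helix-loop-helix factors that is high in dendritic cells, had a ratio of 2.11 (1.38 to 2.87), and 62.5% of its knockdown UMIs were in 3 of 73 members. Gm5483 (1.64) and Stfa1 (1.08), stefin A genes of neutrophils with near-identical copies, had 72.2% and 85.2% in 3 members. Stfa1 was at -0.98 without the 5 members among the cells of highest doublet score. With cells thinned before the rule, Gm5483 was at -0.47.

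Among the 12 lowest ratios, Thbs1 came first. Thbs1, which encodes the secreted glycoprotein thrombospondin-1, stood at 78.7 CPM in control members (126 UMIs in 34 cells) and 5.61 CPM in knockdown members (4 UMIs in 3 cells), or -3.81 (-5.71 to -2.42). It was also lower in remaining knockdown cells, at 97.8 and 40.5 CPM or -1.27. Pf4, the platelet factor 4 gene of megakaryocytes, had -3.37, but 93.5% of its 186 control UMIs were in 3 of 78 members, and with the control thinned to knockdown depth before the rule it was at -0.73. Ly6c2 stood at 1093 and 459 CPM, or -1.25 (-1.43 to -1.08), against -0.22 in remaining cells. Trem3 (-1.38), a receptor of myeloid cells, Clec5a (-1.53), a lectin receptor, Mgst1 (-1.46), a glutathione transferase gene, and Serpinb1a (-1.19), an inhibitor of neutrophil proteases, lay between 0.07 and -0.49 in remaining cells. Without Hlf and Ly6a in the rule, Clec5a was at 0.51 and Trem3 at 0.68. With cells thinned before the rule, Ly6c2, Mgst1 and Trem3 each turned to 0.53. With at least 3 markers, Thbs1 and Clec5a were each at 1.36, from 9 and 5 cells. Haus4 (-1.23 in members, -1.19 in remaining cells), a subunit of a spindle complex, and Myl10 (-1.21 and -1.02), a myosin light chain, were lower by like amounts in both populations.

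**Figure D5:**
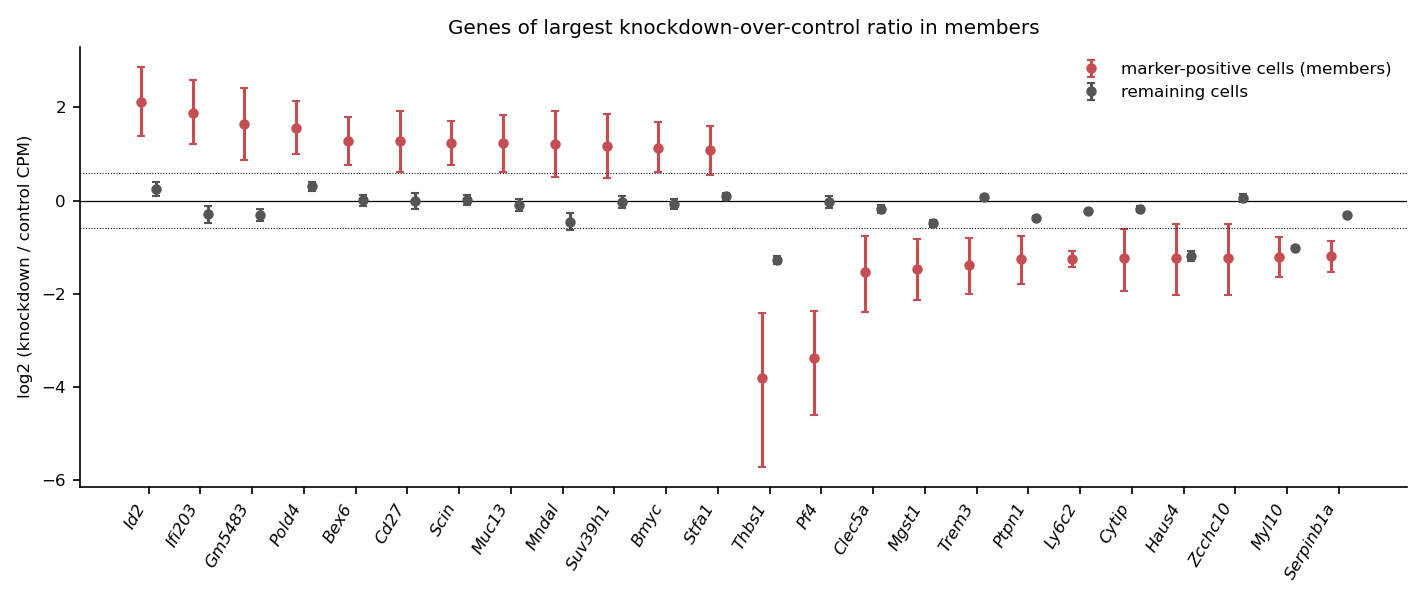
Log2 ratio of knockdown over control CPM (y axis) of the 12 genes with the highest and the 12 with the lowest ratio in marker-positive cells, in these cells and in remaining cells, with exact 95% intervals that cover counting error only; dotted lines mark 1.5-fold. Remaining cells lie between the dotted lines except for Thbs1 (-1.27), Haus4 (-1.19) and Myl10 (-1.02).

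By list, knockdown members had more of the stem cell surface antigens and less of the granulocyte and monocyte progenitor genes. Of 7 surface antigens tested, 4 (Cd34, Cd27, Adgrg1 and Muc13) were past 1.5-fold higher and 0 lower, beside 2.92% and 6.04% of all genes tested. Their median was 0.66, against -0.09 over all genes. Cd27 and Muc13 reached the minimum of 50 CPM in knockdown members only, where they were high. The count and the median of the antigens include them. With cells thinned before the rule, Cd27 was at -0.06 and Muc13 at -1.71, from 12 and 25 cells. Of 7 stem cell transcription factors 2, Sox4 and Etv6, were higher and 0 lower, with a median of 0.42. Of 13 granulocyte and monocyte progenitor genes 5 (Elane, Ctsg, Ms4a3, Igsf6 and Gfi1) were lower and 0 higher, with a median of -0.45, and Elane stood at 2085 CPM against 3908 CPM. In remaining cells the 3 medians were -0.02, 0.11 and 0.05. The make-up of the members differed along with these values: 25.6% of control and 41.1% of knockdown members carried Myct1, and 47.4% and 24.7% carried Hlf. Median depth was 20980.5 UMIs in control and 9333 in knockdown members. Knockdown, depth and the mix of cells that the rule takes cannot be told apart here with 1 library per group.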

How the data were processed

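The authors deposited whole-number UMI counts per gene and cell barcode. The submitters' processing notes name Cell Ranger 2.1.1 and mm10, and per the labels' protocols the 10x kit was 3′ version 2. The annotation release is not given in the sources used here. Cells with at least 500 genes and at most 10% mitochondrial UMIs were kept (2912 of 2925 control and 6004 of 6015 knockdown barcodes, of 49333454 and 62910229 UMIs). The libraries share 26 barcode sequences, 0 of them of members. Scrublet (scanpy 1.11.5) marked 0.0343% and 0.0999% of cells, too few to rely on, so doublets were kept.

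UMIs were summed per population and divided by its total (CPM). Ratios have exact intervals from the binomial split, levels Poisson and shares Clopper-Pearson intervals, all 95%. They cover counting error only, and no p-value was computed. Called means past 1.5-fold among genes of at least 50 CPM. Where 0 UMIs were counted, 3 counts are the floor. Named were the 12 highest and 12 lowest ratios of each comparison, Cxxc5, rule genes and up to 6 genes of each of 30 lists. Other genes (Procr, Slamf1, Tek, Fgd5, Emcn, Clec1a, Angpt1, Itga2b, Vwf, Ikzf2, Dntt and those named within groups of members) were chosen after their values were seen. The members and lists were chosen with earlier results of these data known. The ratio and interval code was tested on simulated data. Genes were located in GENCODE M21 (GRCm38).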

Additional observations from a re-analysis of the deposited data

How the results depend on the processing

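The 9 genes higher in marker-positive cells kept the sign of their ratio in both libraries under every alternative run, except Vamp5 (-0.02 in the knockdown) and Tmem176b (-0.33 in the control) with at least 3 markers. There were 24 such genes in both directions, 239 between knockdown and control members, and shares of 2.68% and 1.22%. With at least 3 markers the shares were 0.309% and 0.0833% and the counts 262 and 1662, Cebpb was at 0.55 in the knockdown, and Thbs1 and Clec5a at 1.36, from 9 and 5 cells. Without Hlf the values were 1.55%, 0.949%, 90 and 367, and without exclusions 4.5%, 1.85%, 119 and 118. With cells thinned before the rule, and so before its exclusions, they were 0.429%, 0.466%, 528 and 1693. Knockdown over control then turned for Gm5483 (-0.47), Pold4 (-0.57), Bex6 (-0.64), Cd27 (-0.06), Muc13 (-1.71) and Mgst1, Trem3 and Ly6c2 (0.53 each). Thinned counts of the same members gave 85 and 610 and Fam212a at -0.07 in the knockdown. Means of each cell's CPM gave 72 genes over remaining cells. A minimum of 20 CPM gave 66 and 866, of 100 CPM 7 (0 higher) and 78, and none 809 and 3287, where the cytokine receptor medians were 0.32 over remaining cells in the knockdown library and 0.17 between libraries. With the median ratio at 0, the list medians over remaining knockdown cells were 0.06 for G2 and M phase, 0.01 for ribosome biogenesis and 0.06 for oxidative phosphorylation. Removing high doublet scores put Stfa1 at -0.98.

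After the data were seen, 2 alternatives were added. Without Hlf and Ly6a the values were 0.618%, 0.566%, 412 and 631, with Cd27 at -0.34, Clec5a at 0.51, Trem3 at 0.68 and Ptpn1 at 0.06. With the control thinned to knockdown depth before the rule, they were 1.55% in the control and 83 genes over remaining cells. The cause of these changes was not tested, beyond the fewer cells and UMIs that stricter rules leave. Of 349 values of single genes between knockdown and control members, 282 moved by less than their interval, 52 by more and 15 reversed. No paired analysis was possible because each group has 1 library. Depth limits all of this: the median gene tested had 161 UMIs in control and 67 in knockdown members.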
